A study of Mus musculus with 4 samples.

Results

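The cells described here are dividing NK-like cells of the mouse salivary gland: cells that carry transcripts of Ly49-type natural killer (NK) receptors and, at the same time, transcripts made during DNA replication and mitosis. They were selected on their unique molecular identifiers (UMIs, each marking 1 captured transcript). A kept barcode was a member if it had at least 3 UMIs of Klra4, Klra8 and Klre1 together, at least 4 of Mki67 and Top2a together, none of Cd3d, Cd3e, Cd3g or Il1rl1, and at most 5 of the C1q genes. The count was 567 cells of 37644 kept barcodes, and of 3680 cells that met the same NK rule with or without the division genes. The other 3113 cells are called non-dividing below. Those values chose the members, so the difference between dividing and non-dividing cells is given as a description, with no test.

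CD45+ cells, the white blood cells of the tissue, had been enriched with magnetic beads and sorted from glands of mice 20 days old, and were profiled with a droplet 3′ kit. The mice had either 1 working copy of Csf2 (Csf2+/-) or none (Csf2-/-), on a background the labels write as C56BL/6, so the control mice also carried 1 mutant Csf2 copy. Csf2 encodes GM-CSF, a cytokine that acts on macrophages and other myeloid cells, and the study asked about its source and its role for gland macrophages. Each genotype had 1 female and 1 male library, each pooled from 2 mice, so the 4 libraries are the replicates and every library stands for 1 genotype and 1 sex. No label says whether the pools were processed separately, and p-values measure the spread between these pools only. Values for single libraries are listed throughout in 1 order: the female, then the male Csf2+/- pool, then the female and the male Csf2-/- pool.

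NK cells are innate lymphocytes that kill infected or altered cells with perforin and granzymes and release chemokines and interferon gamma. Ly49 receptors, encoded by the Klra genes, are lectin-like receptors on mouse NK cells, most of them inhibitory sensors of MHC class I. The salivary gland is known to hold NK cells with traits of both conventional NK cells and tissue-resident innate lymphocytes. In a dividing cell, E2F factors switch on replication genes in late G1 and S phase, and the mitotic genes follow in G2 under MYB-MuvB and FOXM1, which act through a promoter element called CHR.

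The stretches before the start of 6 of these genes are shown because they hold, or lack, the elements tied to those phases. They are the last 120 bases before the annotated start, from RefSeq on GRCm38.p6, written 5′ to 3′ on the gene's strand. Capitals mark TTTGAA (CHR), CCAAT, and the E2F-type strings TTTGGCGC, TTTCCCGC, TTTCGCGC and GGCGGGAA, on either strand. The division genes Mki67 and Top2a were part of the selection, Cdk1 is a mitotic kinase and Mcm6 a subunit of the replicative helicase, and Klra4 and Klra8 are the Ly49 genes of the selection.
Mki67 (chr7:135716380-135716499, minus strand): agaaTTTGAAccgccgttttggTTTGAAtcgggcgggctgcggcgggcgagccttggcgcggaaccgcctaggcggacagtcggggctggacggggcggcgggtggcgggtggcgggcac
Top2a (chr11:99024190-99024309, minus strand): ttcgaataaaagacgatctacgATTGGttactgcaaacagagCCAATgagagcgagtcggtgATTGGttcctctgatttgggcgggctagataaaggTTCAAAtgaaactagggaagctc
Cdk1 (chr10:69352913-69353032, minus strand): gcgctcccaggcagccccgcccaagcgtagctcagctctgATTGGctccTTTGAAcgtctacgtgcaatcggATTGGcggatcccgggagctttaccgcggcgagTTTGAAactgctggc
Mcm6 (chr1:128359706-128359825, minus strand): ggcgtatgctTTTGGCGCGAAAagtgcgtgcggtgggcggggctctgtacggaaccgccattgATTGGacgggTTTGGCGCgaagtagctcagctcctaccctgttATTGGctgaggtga
Klra4 (chr6:130067272-130067391, minus strand): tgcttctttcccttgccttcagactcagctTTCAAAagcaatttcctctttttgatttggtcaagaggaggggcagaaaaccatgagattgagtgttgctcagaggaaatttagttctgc
Klra8 (chr6:130129899-130130018, minus strand): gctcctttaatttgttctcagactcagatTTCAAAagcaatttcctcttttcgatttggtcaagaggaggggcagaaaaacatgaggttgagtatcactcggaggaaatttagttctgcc
The Cdk1 stretch held CHR and CCAAT strings and no E2F-type string, and the Mcm6 stretch held 3 E2F-type matches, of which a pair overlapped, and no CHR string. The Klra4 and Klra8 stretches shared a run of 27 identical bases and held 1 CHR string each, so these letters also stood before genes of no mitotic role. Over the 250 bases before the start of all 27025 promoters in the table, 16.3% held the CHR letters, 2.98% an E2F-type string and 34.5% CCAAT. Of the 34 replication genes (helicase, licensing and polymerase lists) found in the table, E2F-type strings stood before 9 (26.5%), CHR before 4 (11.8%) and CCAAT before 21 (61.8%). Of 83 mitotic genes (kinetochore, spindle, passenger, condensin and anaphase lists), 23 (27.7%) held CHR, 7 (8.43%) an E2F-type string and 49 (59.0%) CCAAT. Of 57 NK receptor and granule genes, 13 (22.8%) held CHR, 12 (21.1%) CCAAT and 0 an E2F-type string. A match is a string of letters and was not tested as a binding site. The printed stretches are chosen examples. Over the same 120 bases, the mitotic gene Birc5 held no marked string, and Mcm3, another helicase gene, held CCAAT alone.

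The libraries held 9567, 8750, 9752 and 9575 kept barcodes and summed to between 111981802 and 122366588 UMIs. Csf2 itself, measured over all kept barcodes, gave 16.7, 18.1, 0.929 and 1.10 UMIs per 1000000 UMIs (CPM, counts per 1000000), low in both libraries labelled Csf2-/-. In the members Csf2 had 4, 3, 1 and 0 UMIs. Y-linked UMIs followed the labelled sex except in the Csf2-/- female library, where 31 of its kept barcodes (0.318%), 2 of them members, carried at least 5 Y-linked UMIs. The libraries shared 159 of 37485 distinct barcode sequences, and 9 of the 567 members had such a barcode.

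Members numbered 140, 202, 106 and 119 in the 4 libraries, and their UMIs summed to between 2031187 and 4557023. Their median depth was 21174, 20426.5, 18287.5 and 18196 UMIs, against 10859, 10208, 9447 and 8632 in non-dividing cells. Median genes per cell ran from 4277 to 4516.5 against 2755 to 3072. Dividing cells were thus the deeper ones in every library, and a gene lower by CPM in them can still have as many UMIs per cell. A minimum number of UMIs also selects deeper cells, and that part was not tested. UMIs per cell are therefore given beside CPM for some genes, and elsewhere higher and lower refer to CPM alone. Mitochondrial UMIs were 1.78% to 2.17% in members and 2.15% to 2.54% in non-dividing cells.

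All 14 NK markers, the 3 of the selection among them, had UMIs in the members of every library. So had all 10 markers listed for ILC1, a type of tissue-resident innate lymphocyte, so presence alone does not tell these types apart. The NK list summed to 7170, 7171, 6675 and 8215 CPM and the ILC1 list to 730, 562, 581 and 471 CPM. The NK sum includes the 3 genes that the selection required, and the lists differ in length, so the sums do not compare the types. Birc5, which encodes the mitotic protein survivin and was not part of the selection, had 410.2, 389.7, 487 and 464 CPM in the members and 4.87, 8.21, 4.12 and 11.4 CPM in non-dividing cells. With every cell thinned to 3000 UMIs, 51.4%, 57.2%, 59.4% and 60.5% of members had a Birc5 UMI. The shares were 1.11%, 1.97%, 0.930% and 2.12% of non-dividing cells and 0.391%, 2.98%, 2.75% and 1.63% of B cells, which gave the background. Those B cells had at least 2 UMIs of Cd79a and none of the Ly49-type genes of the selection. Without thinning the shares were 77.9%, 78.2%, 84.0% and 78.2% in members and 3.11%, 4.63%, 2.62% and 4.89% in non-dividing cells. By transcripts beyond those that chose them, the members of all 4 libraries carried both NK and mitotic genes. At the edge of the selection, 78 cells had a Mki67 and Top2a sum of 3, just outside, and 24.4% of them had a Birc5 UMI; 52 cells had a sum of 4, just inside, and 32.7% had one. By the Ly49 sum, 24 cells that met every other criterion stood at 2 and 13 members at 3.

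By thresholds on dendritic, B cell or epithelial markers, barcodes with transcripts of other lineages were a minority. Barcodes with dendritic, B cell or epithelial markers numbered 5, 9, 8 and 6 among the members (3.57%, 4.46%, 7.55% and 5.04%), and made up 3.31%, 1.83%, 3.28% and 1.69% of non-dividing cells. The summed level of 7 dendritic markers was 735, 494, 2013 and 658 CPM, highest in the Csf2-/- female library, and that of 6 epithelial markers was 115, 2132, 368 and 71.3 CPM, highest in the Csf2+/- male library. The macrophage markers summed to 248, 128, 282 and 154 CPM. The 11 T cell markers, with the Cd3 genes at 0 by the selection, summed to 453, 459, 418 and 474 CPM. Trdc, 1 of them, had a UMI in 51.4%, 63.9%, 43.4% and 58.8% of members without thinning. In non-dividing cells that share was 47.1%, 46.7%, 42.1% and 45.5%. No threshold was set on T cell markers other than the Cd3 genes. Granulocyte and mast cell markers had 2, 2, 7 and 1 UMIs over 6 genes, and red cell markers 0, 4, 5 and 1 over 5. One Csf2+/- male barcode held 296991 UMIs, 6.52% of that library's member total, where the next held 49786. It had 8829 UMIs of Smgc and 9227 of Pip, both saliva proteins of gland epithelium, 1 UMI each of Klra4, Klra8 and Klre1, 20 of Mki67 and 29 of Top2a, and none of Ncr1, Prf1, Gzma or Eomes. It may not be an NK-like cell, and results below are also given without it or without all 28 such barcodes where that moves them.

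The share of Ly49 NK-like cells that were dividing was 12.3% (140 of 1137, exact binomial 95% interval 10.5 to 14.4), 19.7% (202 of 1023, 17.3 to 22.3), 12.2% (106 of 869, 10.1 to 14.6) and 18.3% (119 of 651, 15.4 to 21.5). The intervals cover counting error only. The female libraries of both genotypes stood near 12% and the male libraries near 19%, and the genotypes overlapped. The mean was 16.0% ± 5.26 (SD, n = 2) in Csf2+/- and 15.2% ± 4.30 (SD, n = 2) in Csf2-/- libraries. The difference, Csf2-/- minus Csf2+/-, was -0.79 percentage points, -0.12 between the female and -1.47 between the male libraries (exact two-sided permutation p = 0.667, where 2 against 2 libraries cannot go below 0.333). Its sign was not stable: with each barcode thinned to 3000 UMIs the share was 7.02%, 9.85%, 7.04% and 12.9%, and the difference 1.56 points. That thinning left out 578, 573, 628 and 648 barcodes with fewer UMIs.

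**Figure D1:**
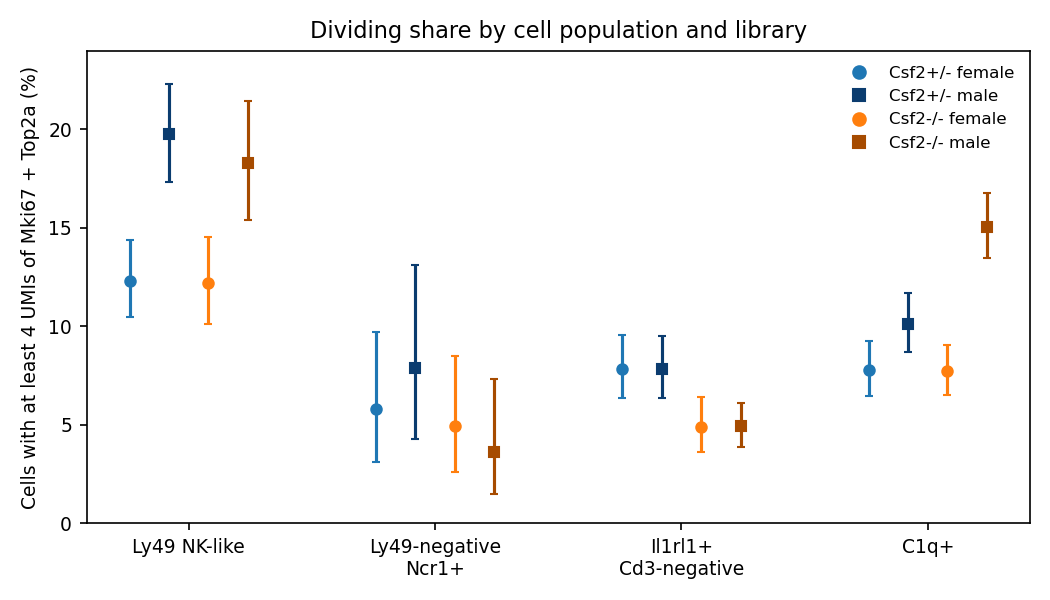
Share of cells with at least 4 UMIs of Mki67 and Top2a, in percent, in Ly49 NK-like, Ly49-negative Ncr1+, Il1rl1+ and C1q+ cells of the 4 libraries, with exact binomial 95% intervals as bars. Among Ly49 NK-like cells the female libraries sit at 12.3% and 12.2% and the male libraries at 19.7% and 18.3%. Ly49-negative cells had no UMI of Klra4, Klra8 or Klre1, and other Klra genes were not checked.

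Between the sexes the share was 12.3% ± 0.0815 (SD, n = 2 female libraries) against 19.0% ± 1.04 (SD, n = 2 male libraries), a difference of 6.76 points and no overlap (exact two-sided permutation p = 0.333, the smallest 4 libraries allow). Of all kept CD45+ barcodes the members were 1.46%, 2.31%, 1.09% and 1.24%, or 1.89% ± 0.598 in Csf2+/- and 1.16% ± 0.110 in Csf2-/- libraries (SD, n = 2 each). That difference was -0.72 points, with both Csf2-/- libraries below both Csf2+/- libraries (exact permutation p = 0.333). The whole Ly49 NK-like population showed the same order, at 11.9%, 11.7%, 8.91% and 6.80% of kept barcodes, a difference of -3.93 points (exact permutation p = 0.333). A share of all CD45+ barcodes depends on how many other cells were captured, and that was not tested.

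Other lymphoid and myeloid cells of the same libraries gave lower dividing shares. Cells with an Ncr1 UMI and no UMI of Klra4, Klra8 or Klre1 are called Ly49-negative, and other Klra genes were not checked. By the same division rule they gave 5.80% (13 of 224), 7.88% (13 of 165), 4.94% (12 of 243) and 3.63% (7 of 193). The Ly49 NK-like share exceeded that in 4 of 4 libraries, by 10.1 points on average (SD 3.86, n = 4 libraries; exact two-sided sign-flip permutation p = 0.13, the smallest 4 libraries allow; also 0.13 after adjustment over 3 such comparisons). The excess was 9.27 points (SD 4.11) over Cd3-negative Il1rl1+ cells (Il1rl1 encodes the IL-33 receptor of type 2 innate lymphocytes), whose shares were 7.84%, 7.82%, 4.88% and 4.91%, and 5.46 points (SD 2.84) over C1q+ cells, a macrophage gate, at 7.78%, 10.1%, 7.71% and 15.1%, each with the same p. Thinned to 3000 UMIs, the excess over the Ncr1+ cells was 3.37 points, and depth per cell differed between these populations.

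To describe the transcripts, UMIs of the members were summed per library and set beside those of the non-dividing cells of that library, as CPM. A log2 difference is between dividing and non-dividing cells, with 1 CPM added, averaged over 4 libraries with its SD, and no test belongs to it. Since both states were cut from the same cells by division genes, counts of genes that stood apart describe the selection. Of 6275 genes with at least 20 CPM in either state, 1674 (26.7%) had all 4 dividing levels above all 4 non-dividing ones and 1338 (21.3%) had them below. With every cell thinned to 3000 UMIs the counts were 1278 and 885 of 6335. The first-named sets are called higher and lower in the lists that follow. Both words refer to CPM, and a gene called lower can be level or higher per cell.

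Of the 228 cell cycle genes listed, 212 had at least 20 CPM in either state. Every list count of dividing against non-dividing cells below covers only genes at that level. Of the 212, 199 were higher and 3 lower by that rule. The median difference was 2.57 on the log2 scale, against -0.01 over all 6275 genes. All 17 genes at that level in the MCM helicase and origin licensing list were higher, with a median of 1.80. Mcm6, a helicase subunit, had 200.1, 233, 205 and 261 CPM in dividing and 80.2, 94.9, 79.2 and 94.2 CPM in non-dividing cells (log2 1.35 ± 0.08). Cdc6, which loads the helicase at origins, had 43.6, 46.1, 40.9 and 38.7 CPM against 1.74, 3.33, 2.32 and 2.81 CPM (log2 3.63 ± 0.29). Non-dividing cells kept Mcm6 at levels of the same order and had little Cdc6, so members of this list differed among themselves.

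All 24 polymerase and fork genes were higher (median 1.80). Pcna, the sliding clamp of the fork, had 440.0, 532, 463 and 475 CPM against 147, 185, 132 and 167 CPM. Pclaf, which binds Pcna, had 623, 617, 702 and 658 CPM against 8.27, 15.5, 11.8 and 18.4 CPM (log2 5.54 ± 0.46), a wider gap than that of its partner (log2 1.60 ± 0.14). Of 21 nucleotide synthesis genes 19 were higher (median 1.23), led by Rrm2, the regulated subunit of ribonucleotide reductase. Rrm2 had 191, 174, 226 and 191 CPM against 5.05, 4.66, 3.48 and 6.21 CPM (log2 5.08 ± 0.40). Tyms, the thymidylate synthase, had 131, 153, 164 and 163 CPM against 12.4, 15.6, 10.0 and 14.6 CPM. All 17 chromatin genes counted were higher (median 2.39): Hmgb2, a DNA-bending protein, reached 3596, 3397, 3592 and 3892 CPM against 425, 514, 427 and 579 CPM.

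The mitotic lists had the widest gaps. All 27 kinetochore and checkpoint genes (median 4.11), all 25 spindle motor and mitotic kinase genes (median 4.45) and all 11 chromosomal passenger and cytokinesis genes (median 4.44) were higher. Cenpf, a kinetochore protein, had 272, 198, 229 and 314 CPM against 6.09, 6.43, 5.54 and 7.02 CPM. Nusap1, which bundles spindle microtubules, had 281, 216, 265 and 276 CPM against 2.44, 2.00, 1.93 and 2.61 CPM (log2 6.33 ± 0.14). Birc5 had 9.01 UMIs per dividing cell and 0.0738 per non-dividing cell (log2 5.83 ± 0.63). These genes were close to absent outside the members. The rule split the cells by Mki67 and Top2a, and the passenger list holds Mki67 itself, so these gaps are not free of the selection. Of the helicase and licensing list, Cdc6 was also scarce outside the members, while Mcm6 was not.

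Of 22 cyclin and kinase genes 19 were higher and 2 lower. Ccna2, the cyclin of S phase and G2, had 138, 145, 151 and 149 CPM against 0.522, 1.11, 0.515 and 1.60 CPM (log2 6.28 ± 0.37), and Cdk1, the mitotic kinase, 159, 172, 182 and 161 CPM against 3.31, 4.66, 4.51 and 3.41 CPM. The lower genes were D-type cyclins of G1: Ccnd2 had 120.3, 101, 98.5 and 114 CPM against 230.2, 207, 196 and 233 CPM (log2 -0.99 ± 0.04), and Ccnd3 113, 124, 138 and 129 CPM against 192, 167, 198 and 203 CPM. Among 17 CDK inhibitors and genes of quiescence, 5 were higher and 8 lower (median -0.40). Btg1, an anti-proliferative gene of resting lymphocytes, had 805, 582, 622 and 626 CPM against 1549.6, 1277, 1359.8 and 1445 CPM (log2 -1.10 ± 0.11). Pdcd4, an inhibitor of translation, had 167, 149.9, 142 and 158 CPM against 296, 279, 290.1 and 300.1 CPM, and Cdkn1b, which encodes the inhibitor p27, 57.9, 52.9, 57.6 and 55.9 CPM against 81.0, 78.3, 87.2 and 86.6 CPM. Other inhibitors stood the other way: Cdkn2c, which encodes p18, had 46.9, 42.8, 53.2 and 38.3 CPM against 8.18, 8.21, 8.37 and 8.22 CPM (log2 2.31 ± 0.19). The list thus held genes of both directions. Repair genes (13 of 18 higher, median 1.80) and condensin and cohesin genes (16 of 17 higher, median 2.32) lay near the replication lists, while the anaphase-promoting complex list had 11 of 13 higher with a smaller median of 0.97. The third lower cell cycle gene was Pttg1, which encodes securin, at 24.2, 20.4, 18.2 and 28.6 CPM against 33.0, 31.9, 35.0 and 35.9 CPM.

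**Figure D2:**
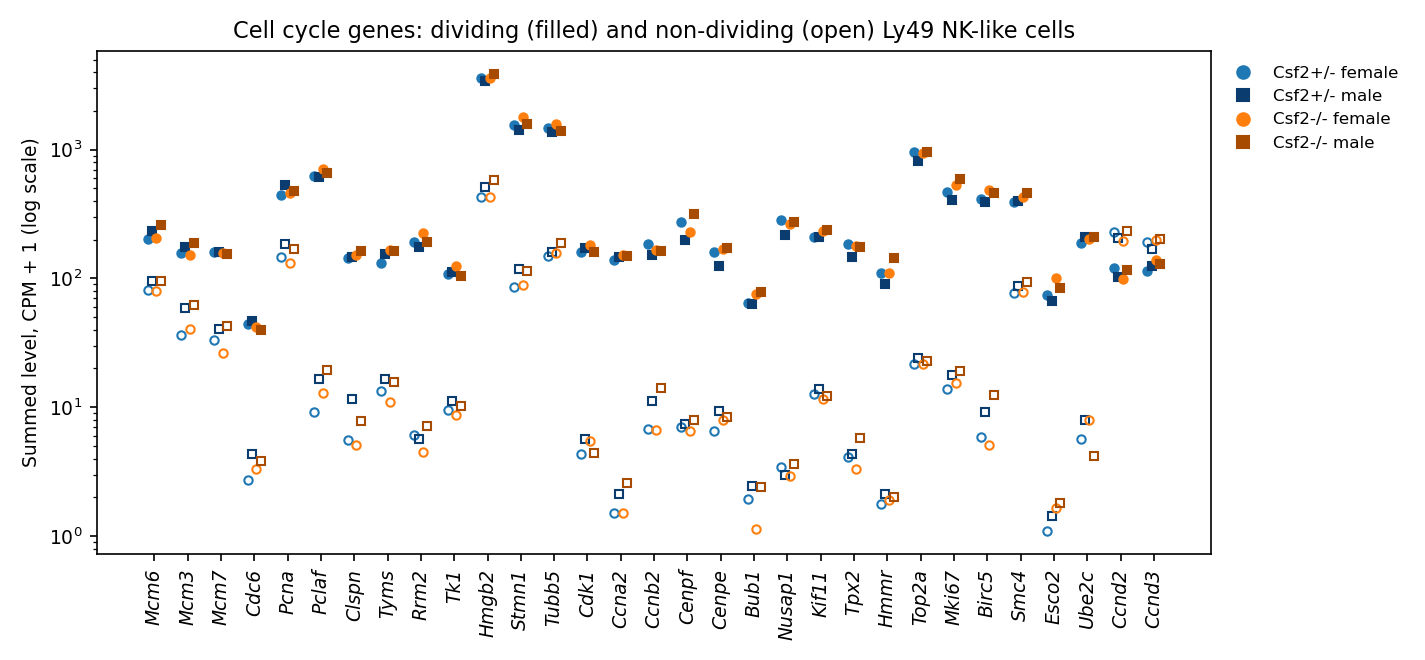
Levels of cell cycle genes as CPM plus 1 on a log axis, in dividing (filled) and non-dividing (open) Ly49 NK-like cells. Each point is 1 library, and Mcm6 sits near 225 against 87.1 CPM on average and Ccna2 near 146 against 0.937 CPM.

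The members were a mix of phases in every library. Thinned to 3000 UMIs, the median member had 20, 23, 21 and 20 UMIs of replication genes and 19.5, 17, 20 and 22 of mitotic genes, where non-dividing cells had medians of 4 to 5 and 2. More mitotic than replication UMIs stood in 48.6%, 39.8%, 47.2% and 47.9% of 140, 201, 106 and 119 members deep enough. The Csf2+/- male library had the lowest such share, and the other 3 lay close together.

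**Figure D3:**
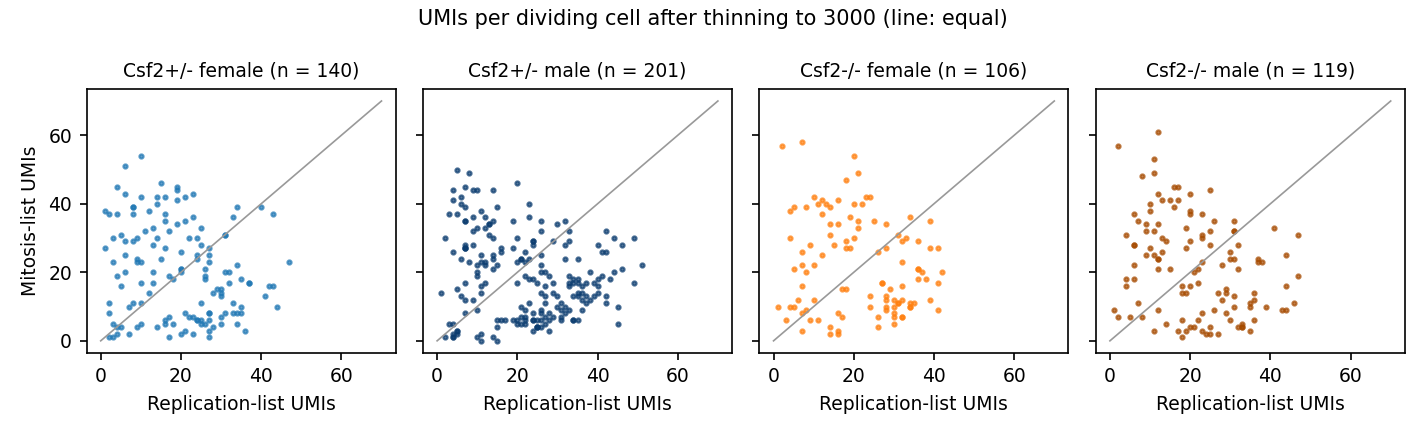
UMIs of mitotic genes against UMIs of replication genes per cell, at 3000 UMIs a cell, for the members of each library, with a line where both are equal. Members spread along both axes, with medians of 20 to 23 replication UMIs.

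Among the genes with the largest differences outside the lists, replication-dependent histones led. H1f5 had 651, 607, 748 and 734 CPM against 4.52, 4.66, 3.61 and 8.42 CPM, and H2ac24, H2ac8, H2ac4 and H3c3 stood beside it. Histone transcripts of this class mostly lack a poly(A) tail, and 3′ capture by poly(T) sees only part of them. The other leading genes were Neil3, a DNA glycosylase, Pbk, a mitotic kinase, Stil, which duplicates centrioles, Shcbp1 and Cdca3.

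NK identity genes were retained, at lower CPM for most. Of 9 Ly49 and related genes with at least 20 CPM in either state, none was higher and 3 lower (median -0.28). Klra4, part of the selection, had 674, 689, 567 and 791 CPM against 807, 919, 739 and 818 CPM, and Klre1 678, 762, 690.2 and 821 CPM against 654, 731, 672 and 838 CPM. Klra genes are close paralogs and reads may be split or lost between them, so single Klra levels are uncertain. Of 22 other NK receptor and adaptor genes none was higher and 17 were lower (median -0.56). Tyrobp, the adaptor of activating receptors, had a log2 difference of -0.98 ± 0.05 while its UMIs per cell were equal, at 23.6 UMIs per dividing cell and 23.6 per non-dividing cell. Ncr1, the activating receptor NKp46, had 199, 199.7, 179 and 202 CPM against 234, 256, 259 and 299 CPM and 4.05 UMIs per dividing cell and 2.74 per non-dividing cell. In thinned cells 47.1%, 46.3%, 42.5% and 47.9% of members had an Ncr1 UMI, against 47.3%, 51.5%, 52.9% and 53.5% of non-dividing cells. Without thinning, 91.4%, 93.1%, 84.0% and 90.8% of members had one, against 84.8%, 85.0%, 85.3% and 84.0%. For Tyrobp and Ncr1 the lower CPM therefore stood beside as many, or more, UMIs per cell.

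Of 20 granule genes none was higher and 12 were lower (median -0.44). Gzma, a granzyme, had 1667, 1559.8, 1455 and 2096 CPM against 2079, 2233, 1934 and 2417 CPM, and 35.0 UMIs per dividing cell and 22.7 per non-dividing cell. Gzmb had 78.9, 129, 55.1 and 120.2 CPM against 161, 212, 164 and 208 CPM (log2 -1.02 ± 0.38), and Prf1, the pore-forming perforin, 93.1, 124, 88.1 and 129.9 CPM against 223, 243, 207 and 287 CPM, with 2.26 UMIs per dividing cell and 2.51 per non-dividing cell. Perforin was thus lower by CPM and close to level per cell, whereas granzyme A was higher per cell.

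Ccl5, a chemokine stored by NK cells, stood apart from these. It had 545, 578, 509 and 505 CPM against 2491, 2357, 2211 and 2165 CPM (log2 -2.11 ± 0.07) and was lower per cell too, at 11.1 UMIs per dividing cell and 24.4 per non-dividing cell. In thinned cells 44.3%, 52.7%, 56.6% and 45.4% of members had a Ccl5 UMI, against 77.9%, 74.5%, 74.5% and 77.2% of non-dividing cells and 8.20%, 4.17%, 12.1% and 8.94% of B cells. Without thinning these shares were 74.3%, 79.2%, 79.2% and 77.3% of members and 88.0%, 85.1%, 84.9% and 85.7% of non-dividing cells. By CPM, all 4 dividing values lay below all non-dividing ones. Of 10 cytokine genes none was higher and 4 were lower (median -0.45), with Ltb, a lymphotoxin subunit, at log2 -1.46 ± 0.07 and Xcl1, which attracts cross-presenting dendritic cells, at -0.57 ± 0.06.

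Genes of maturation, residency and survival differed list by list. Of 11 early NK genes 7 were lower and of 11 late ones 4, none higher (medians -0.67 and -0.33). Of 11 tissue-residency genes 8 were lower (median -0.57), among them Itga1, the collagen-binding integrin CD49a (log2 -1.13 ± 0.38), and of 11 recirculation genes 5 (median -0.40). Of 21 STAT5 target and survival genes 9 were lower and 2 higher (median -0.35). Bcl2, which protects resting lymphocytes from death, had 353, 355, 369.7 and 310.3 CPM against 732, 786, 735 and 759 CPM (log2 -1.12 ± 0.13). Il2rb, the receptor chain for IL-2 and IL-15, stood at -0.55 ± 0.09. Of 30 transcription factors 9 were lower and 1 higher. The higher one was Myb, a factor of proliferating progenitors, at 84.8 ± 12.7 CPM against 51.9 ± 10.4 CPM (mean ± SD, n = 4 libraries). Eomes, the NK lineage factor, was near level at 239, 245, 252 and 300.2 CPM against 230.1, 253, 237 and 264 CPM, while its relative Tbx21 was lower (log2 -0.77 ± 0.24).

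Genes of growth were higher by smaller steps. Of 23 ribosome synthesis genes 15 were higher (median 0.37, Npm1 at 0.46 ± 0.10), of 27 respiratory chain genes 21 (median 0.35), and of 12 cholesterol synthesis genes 10 (median 0.56, Idi1 at 1.10 ± 0.09). Of 16 glycolysis genes 6 were higher and 2 lower: Gapdh stood at 0.69 ± 0.07 and Aldoa at -0.61 ± 0.15, in opposite directions within 1 pathway. Of 13 genes of the mitochondrial genome none was higher and 1 lower (median -0.15), which differed in sign from the nuclear respiratory genes. Of 15 interferon response genes 9 were lower and none higher (median -0.50).

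**Figure D4:**
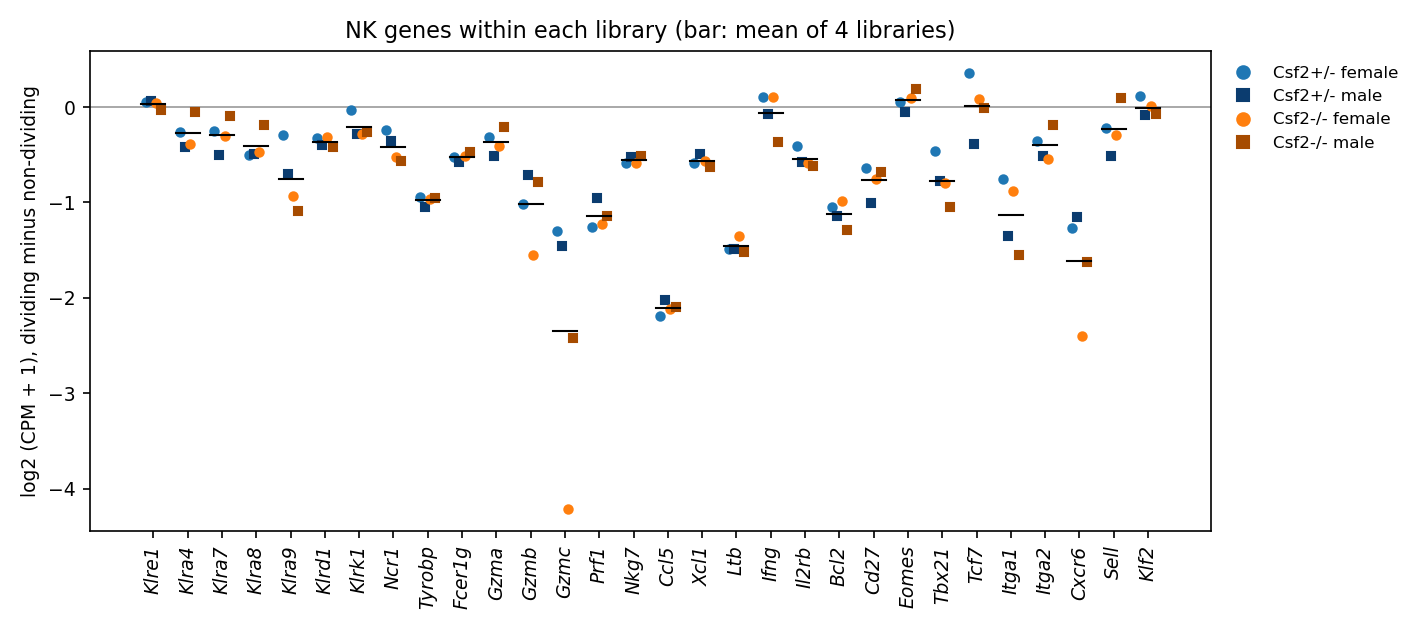
Log2 difference in CPM plus 1, dividing minus non-dividing, for NK genes, with 1 point per library and a bar at the mean. Ccl5 lies at -2.11 on average, while Klre1 and Eomes lie near 0.

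Whether Csf2 genotype moved these genes inside the dividing cells was tested on summed counts per library, 2 against 2, with edgeR's quasi-likelihood test over 9609 genes. One gene (0.0104% of those tested) rose in Csf2-/- members and 5 (0.052%) fell at an adjusted p under 0.05, where 562 had an unadjusted p under 0.05. Both Csf2-/- libraries lay above both Csf2+/- libraries for 1890 genes (19.7%) and below for 1528 (15.9%). Of 33 NK identity, division and GM-CSF genes followed by name, 27 could be tested and 1, Gzmc, was called. The lowest edgeR adjusted p of the others was 0.523.

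The fallen genes were Gzmc (ENSMUSG00000079186), Kdm2b (ENSMUSG00000029475), Nfkb1 (ENSMUSG00000028163), Btbd11 (ENSMUSG00000020042) and Ppargc1a (ENSMUSG00000029167). Nfkb1, which encodes the p50 subunit of NF-κB, had 606, 581, 369 and 413 CPM, so that both Csf2-/- libraries were lower (log2 -0.61, SE 0.10, edgeR adjusted p = 0.0294). Kdm2b, a histone demethylase and Polycomb partner, had 316, 299, 201 and 182 CPM (log2 -0.69, SE 0.10, edgeR adjusted p = 0.0262). Ppargc1a, the coactivator that drives mitochondrial biogenesis, had 39.8, 38.2, 18.2 and 17.2 CPM (log2 -1.15, SE 0.20, edgeR adjusted p = 0.0386). Btbd11, a BTB domain gene, had 86.6, 72.4, 44.3 and 42.3 CPM (log2 -0.88, SE 0.15, edgeR adjusted p = 0.0318). For each of these 4 genes the genotypes did not overlap and the sexes within a genotype lay close together. Non-dividing cells had 465, 524, 376 and 400 CPM of Nfkb1 and 298, 349, 223 and 243 CPM of Kdm2b. Their Btbd11 levels were 113, 137, 72.7 and 111 CPM. Those genes kept the same order without overlap there, so their differences were not particular to dividing cells. Ppargc1a had 37.2, 64.3, 28.3 and 43.5 CPM there and overlapped. None of these genes passed the interaction test given below.

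Gzmc, a granzyme of activated killer lymphocytes, had 62.1, 49.8, 8.86 and 18.5 CPM (log2 -2.02, SE 0.25, edgeR adjusted p = 0.0262), but few cells carried it. UMIs of Gzmc were found in 10.7%, 12.4%, 9.43% and 10.1% of members, and 137 of the 192 UMIs of the Csf2+/- female library sat in 1 cell. In the Csf2+/- male library 49 of 227 UMIs sat in 1 cell. Without the top cell of each library the levels were 17.9, 39.3, 5.96 and 13.7 CPM. Both Csf2-/- libraries then lay below both Csf2+/- libraries, as with all cells. Non-dividing cells had 154, 138, 182 and 104 CPM of Gzmc, and the genotypes overlapped there. Pltp, a phospholipid transfer protein, was the 1 risen gene, with 0.970, 0.439, 9.35 and 8.36 CPM (log2 3.65, SE 0.59, edgeR adjusted p = 0.0318). Of its 19 UMIs in each Csf2-/- library, 18 and 11 sat in barcodes with markers of other lineages, and without those barcodes Pltp had too few UMIs to test. The part of other cells in the Pltp result was not tested beyond that.

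The calls rested on the full set of libraries. Leaving out the Csf2+/- male or the Csf2-/- female library ended all 6, leaving out the Csf2-/- male library left 1 and leaving out the Csf2+/- female library 3. DESeq2 kept 3 and limma-voom none of the 6, with the same direction for all. Only 2 of the 6 calls remained with a division gate of 8 UMIs, and 2 with no C1q UMIs allowed. Without the 28 barcodes carrying markers of other lineages 5 of 6 kept the call.

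Several genes near the calls did not pass, and their values are given without a verb of change. Rel, another NF-κB subunit, had 211, 165, 124 and 122 CPM (log2 -0.62, adjusted p = 0.0775), and Nr4a3, an orphan receptor induced by lymphocyte activation, 300.3, 295, 192 and 214 CPM (log2 -0.56, adjusted p = 0.0633). Both genes had their Csf2-/- libraries below their Csf2+/- libraries. Nr4a1 stood at log2 -0.47, adjusted p = 0.196, Cd83 at -0.67, adjusted p = 0.196, Tnfrsf9, the costimulatory receptor 4-1BB, at -0.52, adjusted p = 0.199 and Bcl2l1, a survival gene and STAT5 target, at -0.84, adjusted p = 0.283. Cish, a feedback inhibitor induced by STAT5, stood at -0.47, adjusted p = 0.764. Zbtb46, a dendritic cell factor, stood at -1.07, adjusted p = 0.104, and Retnla, a gene of alternatively activated macrophages, had 8.41, 5.49, 0.985 and 0.440 CPM, at log2 -3.22, adjusted p = 0.138. Zbtb46 UMIs were in 30% and 27.7% of Csf2+/- and 13.2% and 19.3% of Csf2-/- members, with 6 of 113, 12 of 158, 8 of 29 and 7 of 45 UMIs in barcodes with markers of other lineages. Of the Retnla UMIs, 1 of 26, 3 of 25, 0 of 2 and 1 of 1 sat in such barcodes. That marking used no macrophage genes, so these counts do not cover macrophage transcripts. The Retnla UMIs lay in 25, 23, 2 and 1 members, with at most 2 in any cell, and their source was not tested.

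By list, the direction was uneven. Of 33 transcription factors tested 22 were lower and 11 higher in Csf2-/- members by sign alone (median -0.10), with 9 (27.3%) below and 4 (12.1%) above without overlap, against 15.9% and 19.7% of all genes tested. Of 15 residency genes 12 were lower (median -0.20), with 5 (33.3%) below and 0 above. Of 23 STAT5 and survival genes 15 were lower (median -0.08), with 8 (34.8%) below and 2 (8.7%) above. None of these lists had a called gene, and the median over all 9609 genes was 0.00496.

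The division genes leaned the other way. Of 227 cell cycle genes tested, 165 were higher and 62 lower by sign, 82 (36.1%) had both Csf2-/- libraries above and 16 (7.05%) below, against 19.7% and 15.9% of all genes, and 0 were called (median 0.08). The kinetochore list had 26 of 28 higher, 17 without overlap (median 0.21), and the spindle list 22 of 25, 10 without overlap (median 0.12). Mki67 had 470.4, 405, 527 and 588 CPM (log2 0.34, adjusted p = 0.523) and Birc5 410.2, 389.7, 487 and 464 CPM (log2 0.24, adjusted p = 0.764). Members were chosen by Mki67 and Top2a UMIs in cells of unequal depth, median 18196 to 21174 by library, so these shares are not free of the selection. Of 22 cholesterol synthesis genes 20 were higher (median 0.16) and of 27 respiratory genes 21 (median 0.09), none called.

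Ly49 and GM-CSF receptor genes gave no call. Klra3, an inhibitory Ly49 receptor, had 177, 160.2, 279.6 and 215 CPM (log2 0.55, adjusted p = 0.278), with both Csf2-/- libraries above both Csf2+/- libraries. Klra9 stood at -0.32, adjusted p = 0.68. Csf2ra, the specific chain of the GM-CSF receptor, had 11.6, 7.24, 26.1 and 12.3 CPM (log2 1.03, adjusted p = 0.741), and Csf2rb, the shared chain, 3.56, 3.51, 8.86 and 3.52 CPM. Nearly all Csf2rb UMIs, 10 of 11, 15 of 16, 17 of 18 and 7 of 8, sat in barcodes with markers of other lineages, as did 14 of 36, 11 of 33, 36 of 53 and 14 of 28 Csf2ra UMIs.

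**Figure D5:**
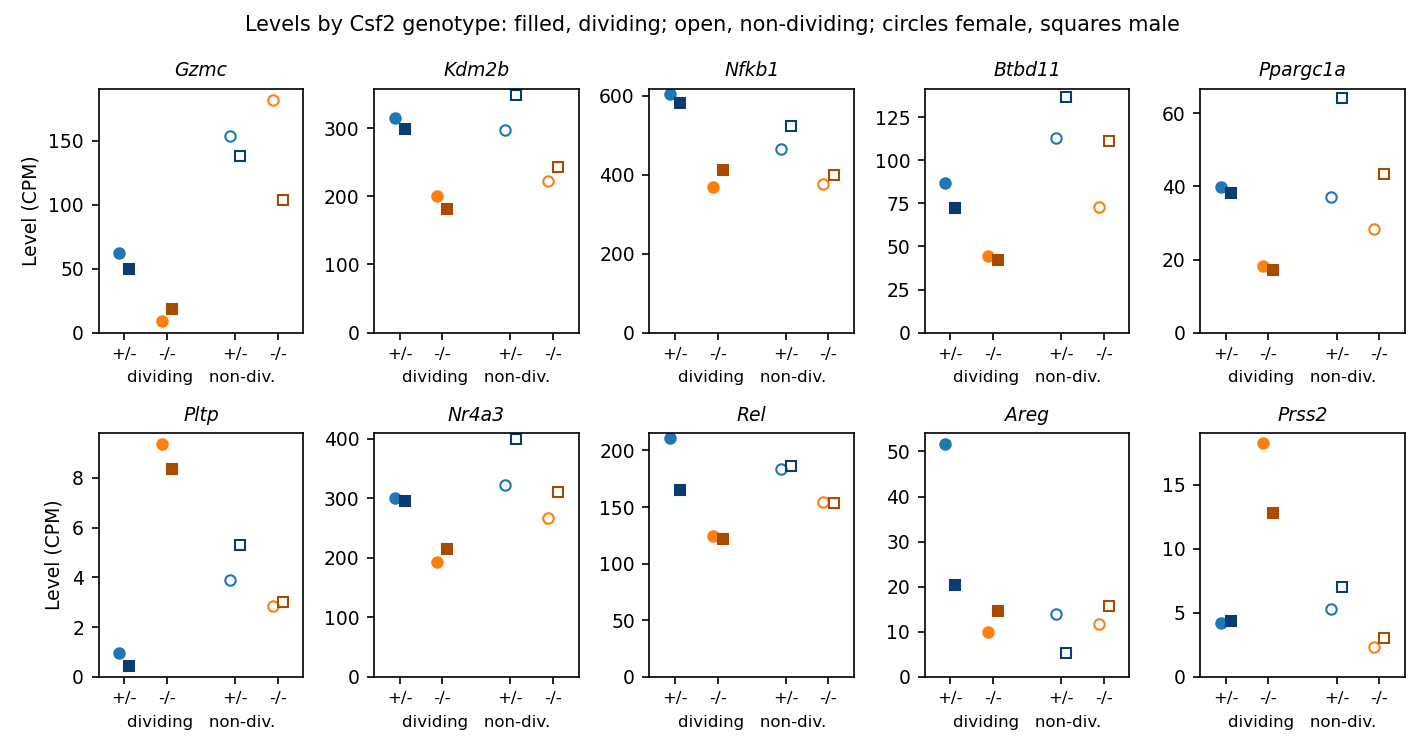
Levels in CPM by Csf2 genotype for 10 genes, in dividing (filled) and non-dividing (open) cells, with 1 point per library (circles female, squares male). Nfkb1 and Kdm2b lie lower in both Csf2-/- libraries in dividing and in non-dividing cells. Pltp lies higher in both in dividing cells.

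Whether the genotype difference itself depended on division was tested as an interaction over 10960 genes, and 4 (0.0365%) passed, with 418 at an unadjusted p under 0.05. Areg, which encodes the growth factor amphiregulin, had 51.7, 20.4, 9.85 and 14.5 CPM in members and 13.8, 5.32, 11.7 and 15.6 CPM in non-dividing cells (log2 -2.08, SE 0.29, edgeR adjusted p = 0.00397 for the difference of differences). Its genotypes did not overlap in the members and overlapped in non-dividing cells. Within the members alone the genotype test gave no call (log2 -1.52, edgeR adjusted p = 0.856). UMIs of Areg were in 16, 18, 6 and 13 members. In the Csf2+/- female library 61 of 160 sat in 1 cell, and in the Csf2+/- male library 39 of 93. Without the top cell of each library the levels were 32.2, 11.9, 7.44 and 10.7 CPM. Prss2, a trypsinogen gene, had 4.2, 4.39, 18.2 and 12.8 CPM in members, from 5 to 7 cells a library, and 5.31, 6.99, 2.32 and 3.01 CPM in non-dividing cells (log2 3.06, SE 0.49, edgeR adjusted p = 0.0116), so the order of the genotypes was opposite in the 2 states. Cxcl2, a neutrophil chemokine, had 47.8, 28.3, 6.89 and 13.6 CPM in members and gave log2 -1.80, SE 0.28, edgeR adjusted p = 0.0116, but 99 and 77 of its UMIs in the Csf2+/- libraries sat in 1 cell each, and the value was -0.29 without barcodes of other lineages. Pltp gave log2 4.36, SE 0.71, edgeR adjusted p = 0.0116, and 1.36 without those barcodes. Of these 4 calls DESeq2 and limma-voom kept 0, leaving out the Csf2-/- female library kept 1, and Areg stood at -0.73 with a division gate of 8 UMIs.

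Sex was tested with genotype in the model, which leaves 1 residual degree of freedom. Of 9609 genes 114 (1.19%) passed, 38 higher in male and 76 higher in female members, and 19 genes passed in a fit without the 28 barcodes that carried markers of other lineages. Gzmb was higher in male members, at 78.9, 129, 55.1 and 120.2 CPM (log2 0.92, SE 0.13, edgeR adjusted p = 4.67e-09), and kept the call without those barcodes (log2 0.78, edgeR adjusted p = 0.0114). Itga1 was higher in female members, at 84.7, 45.9, 92.6 and 47.1 CPM (log2 -0.90, SE 0.14, edgeR adjusted p = 2.22e-07), and also kept it (log2 -0.89, edgeR adjusted p = 0.00407). Both male libraries lay above both female libraries for Gzmb and below them for Itga1, with only 1 library per sex in each genotype. Fgf10, a growth factor for gland epithelium, had 26.5, 3.51, 14.8 and 2.20 CPM (log2 -2.81, SE 0.36, edgeR adjusted p = 3.93e-12), from 13, 5, 6 and 3 cells. Hspa1b, a heat shock gene induced by handling, had 79.2, 27.6, 43.3 and 12.8 CPM (log2 -1.55, SE 0.18, edgeR adjusted p = 5.56e-15), with 142 of 245 UMIs of the Csf2+/- female library in 1 cell. Cd209a and Ccl22, dendritic cell genes, had too few UMIs to test without the other-lineage barcodes.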

How the data were processed

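CD45+ salivary gland cells were measured in 4 single-cell 3′ libraries. The deposited matrices hold UMI counts per gene and barcode, raw and not normalized, made by the authors with Cell Ranger 7.0.0 per the file headers and the submitters' processing notes, which name GRCm39. A barcode was kept here if it reached 500 UMIs and 300 genes and had no more than 10% of its UMIs from the mitochondrial genome, which left 37644 of 39395. The rule for dividing NK-like cells was then applied to raw UMIs. Doublets were scored with Scrublet in scanpy 1.11.5 and removed only in an alternative, where 1.89% to 5.71% of members left. Its automatic threshold marked at most 0.0343% of barcodes in a library and did not work, so the expected share, 7.01% to 7.80% of barcodes with the highest scores, was removed.

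Counts were summed per library and state and scaled to CPM here. Genotype, the interaction and sex were tested with edgeR 4.0.16 (quasi-likelihood, TMM, R 4.3.3) with Benjamini-Hochberg adjustment over all genes at 0.05. On simulated counts with 200 genes changed, the genotype test recovered 98% of genes changed 2-fold, with 8 false calls over 9418 genes. Changes below 2-fold were not simulated, and Nfkb1, Kdm2b and Btbd11 (log2 -0.61, -0.69 and -0.88) were of that smaller size. False calls were counted only with changed genes present. The changed genes were drawn above a level that Gzmc, Ppargc1a and Pltp (34.8, 28.3 and 4.78 CPM on average in members) did not reach. Counts were simulated per library, so UMIs gathered in 1 cell or in barcodes of other lineages were not covered. Shares carry exact binomial 95% intervals. Alternatives were DESeq2 1.42.0, limma 3.58.1 voom, RLE factors, no filter, other gates, thinning and leaving out each library. The replicate numbers were taken as sex within genotype. Barcodes with other lineages' markers (at least 20 dendritic or 3 B or epithelial UMIs), barcodes of 100000 UMIs or more and thinning to 6000 UMIs were set apart after seeing the data. The members, lists and tests were chosen with earlier results of these data known. Named genes are those called, the 5 with the lowest p in a direction with fewer calls, list members by level, difference or p, and 33 followed by name. The list of promoters is RefSeq's on GRCm38.p6, a build other than that of the counts, and no coordinates of the counted genes are used.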

Additional observations from a re-analysis of the deposited data

Results flagged for a closer look

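For 4 genes the genotype difference in dividing cells differed from that in non-dividing Ly49 NK-like cells by the interaction test (edgeR). The difference of the 2 effects was -2.08 on the log2 scale for Areg, an epidermal growth factor receptor ligand, and -1.80 for the chemokine Cxcl2. It was 3.06 for Prss2, a trypsinogen gene, and 4.36 for Pltp, a lipid transfer protein. Barcodes with markers of other lineages held 106 of 148 and 79 of 129 Cxcl2 UMIs in the Csf2+/- libraries, and 18 of 19 and 11 of 19 Pltp UMIs in the Csf2-/- libraries. Without such barcodes the values were -0.29 for Cxcl2 and 1.36 for Pltp. Prss2 UMIs sat in 5, 7, 7 and 7 members. Of the Areg UMIs in the Csf2+/- libraries, 61 of 160 and 39 of 93 sat in 1 cell each.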

How the results depend on the processing

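The genotype difference in the dividing share of Ly49 NK-like cells, -0.79 points, changed sign with thinning to 3000 UMIs (1.56) and to 6000 UMIs (2.05), and ran from -4.51 to 2.93 when 1 library was left out. Leaving out the Csf2+/- male or the Csf2-/- female library made it positive. Each such run left the sexes unmatched between genotypes, and the male share was 6.76 points above the female share. Within sex the difference was -0.12 points between the female and -1.47 between the male libraries. The other alternatives for the genotype difference lay between -1.43 and -0.42. The difference in the share of all kept barcodes kept its sign in every alternative run (-1.14 to -0.30).

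Genotype calls, 1 higher and 5 lower, were 0 and 4 with DESeq2, 19 and 57 with no low-count filter, 0 and 0 with limma-voom (494 genes at unadjusted p under 0.05), 2 and 3 with a division gate of 8, 3 and 4 with a Ly49 gate of 5, 2 and 7 with no C1q UMIs, 0 and 8 without predicted doublets, and 1 and 12 without barcodes of other lineages. Leaving out 1 library, where the lone pool is assumed to vary like the pair of the other genotype, gave 0 to 12 higher and 0 to 20 lower. Cxcl2 reversed with no C1q UMIs, to 0.0079 for genotype and 0.18 for the interaction. With sex as a replicate block the calls were 31 and 54. The female minus male deviations of the genotypes correlated at 0.085 over 9609 genes, and the numbers share only a label of sex, so the block is no pairing by animal.

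The 4 interaction calls became 0 with DESeq2 (46 genes at unadjusted p under 0.05), 37 with no filter, 1 with limma-voom, 1 with a division gate of 8, 1 with no C1q UMIs, 2 without predicted doublets and 10 without barcodes of other lineages, and 3 to 83 with 1 library left out. Sex calls numbered 114, and 19 in the fit without those barcodes. Thinning took the genes lower in dividing cells from 1338 to 885. The cause of these changes was not tested. Over the 51 gene values named, alternatives gave 421 with the same call, 62 that lost it, 45 that gained it and 2 reversed. The excess over the share in Ly49-negative Ncr1+ cells was 3.37 to 13.6 points over all alternatives run, and positive in 4 of 4 libraries in each.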
